A study of Caenorhabditis elegans with 12 samples.

Results

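Baseline expression in the adult gonad was described from the water lineage, 4 RNA sequencing libraries of 12 in a study of inherited effects of bisphenol A (BPA) in the nematode Caenorhabditis elegans. The animals were descended from P0 worms kept for 48 h in water, and their gonads were cut out with needles when the F3 generation was adult. The other 8 libraries came from lineages whose P0 worms had met 100 µM BPA or the solvent dimethyl sulfoxide at 0.1%, and they were not used. All lineages were kept on plates with OP50 E. coli at 20 °C. The labels give no strain, age in hours or number of gonads per sample, and they do not say whether the 4 samples were separate cultures, so the spread between them may be technical. The members were the 4 libraries whose titles name water, called water 1 to water 4 here after their sample numbers. Since there is 1 group, levels and their spread are described and nothing is tested.

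In the hermaphrodite gonad, germ cells divide at the distal end under Notch signalling, enter meiosis, and in the adult grow into oocytes that are filled with stored mRNA, ribosomes and yolk taken up from the body cavity. Sperm are made earlier, in larval life, and are kept in the spermatheca. A thin somatic sheath surrounds the germ cells, and transcription of the X chromosome is known to be low in the mitotic and early meiotic germline.

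Each table lists RPKM, reads scaled to transcript length and to library size, so that levels of different genes can be set side by side. The transcripts of a gene were summed by gene name, which gave 40961 names. The named values of a library summed to 432711, 480481, 512623 and 485868 RPKM in water 1 to water 4. Read counts were not used here, and the depth estimated from the lowest values was 14.04 to 26.2 in units of 1000000 reads. This is a rough figure with little support. Only 27.7% to 30.8% of those values came out as whole reads within 0.1, and values without whole-read steps would often fall in that window too. Water 1 and water 3 stood apart. In water 1 short transcripts were higher and long ones lower than in the other libraries, and in water 3 sperm genes and other genes that were low elsewhere stood at least 4-fold above every other library in RPKM + 1. Values are therefore given library by library, and summaries that rest on these libraries are repeated without them.

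A gene was counted as expressed at a mean of at least 1 RPKM over the 4 libraries, which 7779 of the 40961 names reached, while 20615 names stood at 0 in all 4. Of the expressed genes, 6037 had at least 1 RPKM in every library. Few genes had high levels: a mean of 10 RPKM was reached by 4346 genes, 100 RPKM by 757 and 1000 RPKM by 41. The 10 highest genes took 12.9, 21.5, 22.8 and 20.6% of the summed RPKM in water 1 to water 4, and the 100 highest took 36.2, 42.04, 44.7 and 41.3%, or 41.1 ± 3.55% (mean ± SD, n = 4). The signal was thus spread over more genes in water 1, where 322 genes made up 50% of the sum, against 185, 164 and 202 in water 2, 3 and 4. Among the 100 highest genes of each library 63 were shared by all 4, and 80 by water 2, 3 and 4. Names of protein-coding genes took 94.2 ± 1.14% of the sum, and names without a match in the current annotation took 4.55 ± 1.29%. In these bulk samples fewer cells that express a gene and less RNA per cell cannot be told apart.

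**Figure D1:**
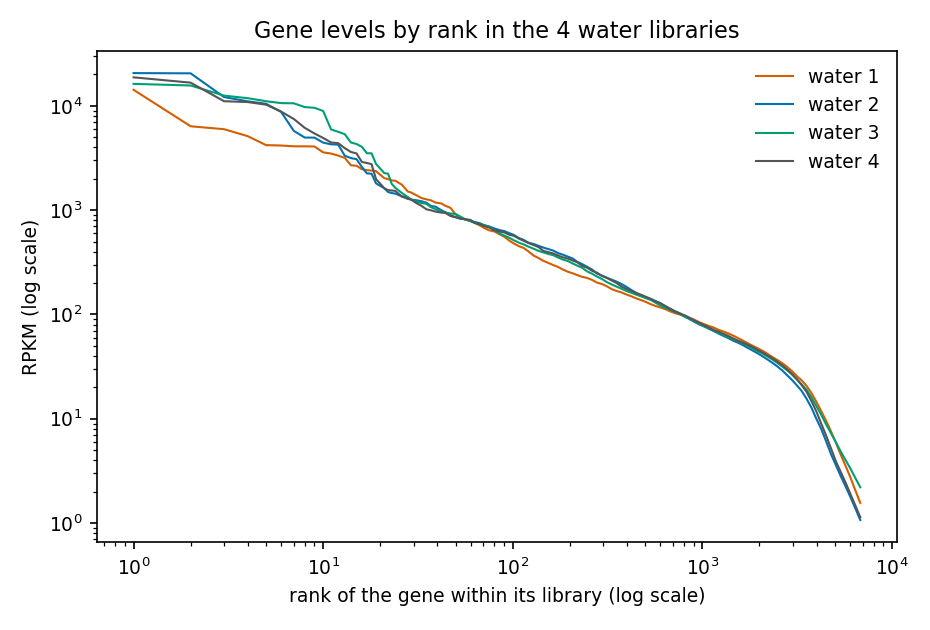
Level of each gene in RPKM (y axis, log scale) against its rank within the library (x axis, log scale), with 1 line for each water library. At rank 10 water 1 stood at 3577 RPKM and water 3 at 8916 RPKM, and at rank 60 the 4 libraries lay between 780.2 and 804 RPKM.

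The highest genes served translation. The ribosomal protein gene rpl-12 had the highest mean, with 2662, 20472, 16216 and 18731 RPKM in water 1 to water 4, followed by eef-1G, which encodes the gamma subunit of translation elongation factor 1, with 4084, 20572, 15651 and 16663 RPKM. Both genes were lowest in water 1, by 7.69-fold for rpl-12 and 5.04-fold for eef-1G between the highest and the lowest library. The locus of rpl-12 in the transcript models also holds tag-115, listed at 4088, 13.9, 144 and 26.5 RPKM, and summed over both names the locus gave 6749.9, 20485, 16360.2 and 18757 RPKM. Water 1 thus remained the lowest at this locus, but by a smaller ratio than for rpl-12 alone. The ribosomal protein gene rpl-7A stood at 4197, 12122, 9716 and 10247 RPKM. Genes of other subunits of elongation factor 1 ranked among the first 10 as well, with 5114, 4950.5, 5344 and 7474 RPKM for eef-1B.1 and 2393, 5746, 5934 and 5425 RPKM for eef-1A.1. In contrast to eef-1G, the values of eef-1B.1 in water 1 lay within those of the other libraries.

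Ribosomal protein genes took 12.2 ± 0.94% of the summed RPKM (n = 4), the largest share among the 32 gene lists. Of 79 names 69 were expressed, 52 of them at 100 RPKM or more, and the median of the expressed ones was 443 RPKM against 15.02 RPKM over all expressed genes. At 0 in all 4 libraries were 6 names, and some expressed members were very low, such as rps-6 and rpl-30 with means of 1.51 and 1.78 RPKM. Whether these low values reflect the genes cannot be told from the tables. The sum of the list was close in the 4 libraries, with 54179.8, 62203, 55545 and 60912 RPKM, although single members differed between them. The gene rps-24 stood at 4159, 841, 1138 and 944 RPKM and was highest in water 1, while rps-8 was more even with 1980.2, 1641, 1414 and 1453 RPKM. Of the 30 names of translation factors 27 were expressed. Their sum, 13093, 32746, 28438 and 31026 RPKM, was lowest in water 1 and came mostly from the 3 elongation factor genes above. Genes of the mitochondrial ribosome were far lower, with a median of 21.9 RPKM in 53 expressed of 61, and the highest of these was mrpl-38 at 115, 51.5, 63.3 and 81.1 RPKM. The list holds no names that end in a letter, and mrps-18A, named after its values were seen, was higher with 184, 98.8, 35.2 and 97.2 RPKM. Of 32 tRNA synthetase names 29 were expressed, with a median of 81.1 RPKM, led by sars-1, the seryl enzyme, at 102, 133, 138 and 143 RPKM and tars-1, the threonyl enzyme, at 80.5, 137, 142 and 153 RPKM.

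A non-coding RNA was among the 3 highest names. The 18S ribosomal RNA name rrn-1.1 stood at 14233, 4958, 10562 and 10855 RPKM and was the highest name of water 1. Its value is the sum of 13 transcripts at 3 loci, with 85.3% at the largest, so its level depends on how reads of near-identical copies were divided.

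**Figure D2:**
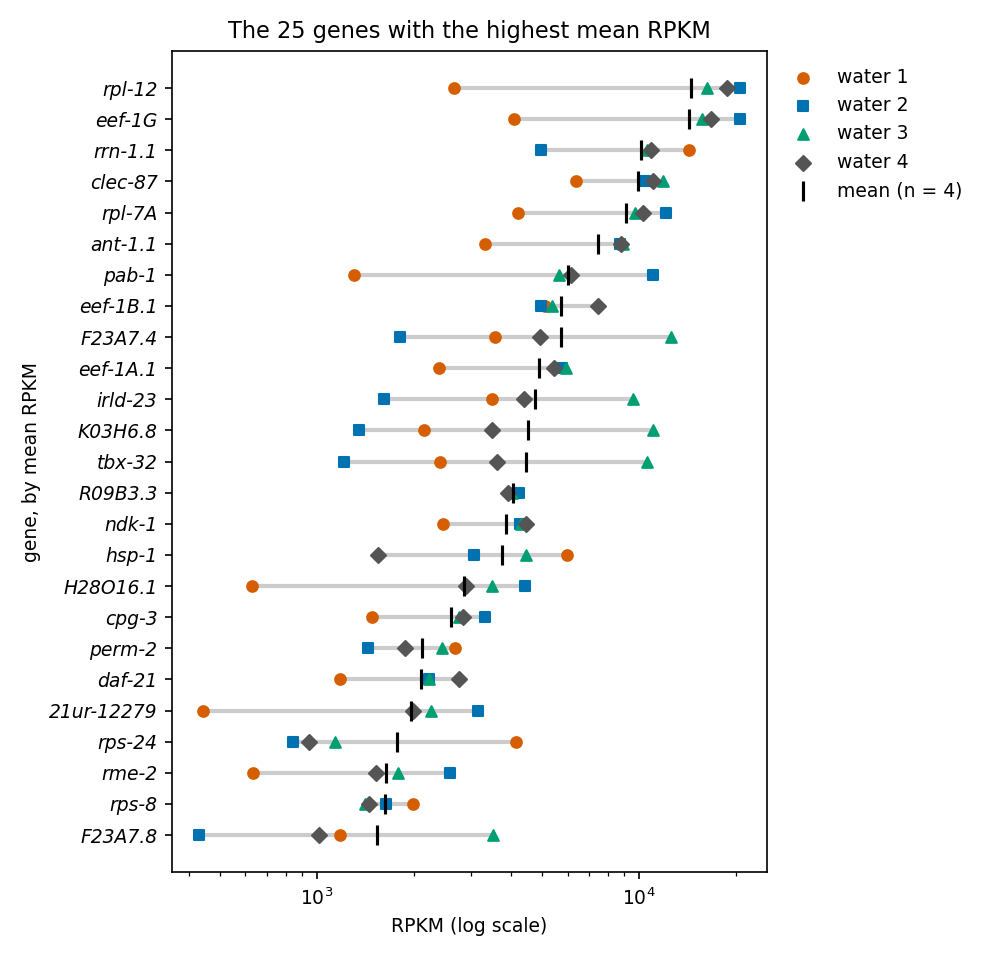
The 25 genes with the highest mean RPKM, from the top, with a point for each water library on a log axis and a bar for the mean (n = 4). R09B3.3 lay between 3924 and 4246 RPKM, whereas pab-1 lay between 1307 and 11034 RPKM.

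Genes of energy supply and protein folding were among the 25 highest. The mitochondrial ADP/ATP carrier gene ant-1.1 stood at 3331, 8738, 8916 and 8800.4 RPKM, and the nucleoside diphosphate kinase gene ndk-1 at 2468, 4270.1, 4300.3 and 4450.2 RPKM. In both, water 1 was well below 3 libraries that lay close together. The gene H28O16.1, named atp-1 in the current annotation and coding for the alpha subunit of the mitochondrial ATP synthase, stood at 630.1, 4435, 3502 and 2893 RPKM. The name of a piRNA, 21ur-12279, shares its locus and ran parallel to it, with 444, 3152, 2266 and 1981 RPKM, lowest in water 1 and highest in water 2. Libraries of this kind are made from long RNA, and how the reads at this locus were divided between the names cannot be told from the tables. The beta subunit gene atp-2 stood at 493, 813, 923 and 875 RPKM. The constitutive Hsp70 gene hsp-1 was highest in water 1 with 5964, 3079, 4446 and 1552 RPKM, and the Hsp90 gene daf-21 was lowest there with 1183, 2233, 2230.4 and 2755 RPKM. RPKM of hsp-1 came from 2 loci, the larger of which held 65.0% of it.

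Among the germline gene lists, the products laid around the oocyte and the yolk receptor had the highest median. Of 24 egg coat and yolk receptor names 22 were expressed, 14 of them at 100 RPKM or more, and the median of the 22 was 198 RPKM. The chondroitin proteoglycan gene cpg-3, whose product is part of the eggshell, led this list with 1479, 3321, 2768 and 2829.8 RPKM. Next came perm-2, which is needed for the layers of the eggshell that keep the embryo sealed, with 2689.8, 1439.5, 2441 and 1880.2 RPKM. For rme-2, which encodes the receptor that takes up yolk, the libraries gave 633, 2591, 1779 and 1527 RPKM, a 4.09-fold range with water 1 lowest and water 2 highest. The list as a whole summed to 8511, 14328, 13879.5 and 12332 RPKM, and in 18 of its 22 expressed genes water 1 was below all other libraries, against 30.7% of all expressed genes.

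A lectin family was represented by few members at high levels. The C-type lectin gene clec-87 ranked the fourth of all genes with 6361, 10446, 11827 and 11061 RPKM, from 2 loci of which the larger held 53.2%. The lectin genes clec-88 and clec-91 followed at 1305, 1339, 1554 and 1168 and 437, 749, 934 and 742 RPKM. Lectins of this family have a sugar-binding fold.

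RNA-binding proteins that hold maternal mRNA in store were expressed almost without exception. Of 44 names listed 42 were found in the data and 40 were expressed, with a median of 99.9 RPKM. The poly(A)-binding protein gene pab-1 stood far above the others with 1307, 11034, 5629 and 6139 RPKM, 8.44-fold from water 1 to water 2. The gene car-1, whose product sits in germline RNA granules, was even between libraries with 805, 591, 695 and 729 RPKM. The oocyte maturation gene oma-1 stood at 295, 139.8, 111 and 91.7 RPKM and the translational repressor gene gld-1 at 177, 98.1, 91.7 and 66.4 RPKM, both highest in water 1. The Y-box gene cey-2 stood at 761, 579.6, 753 and 87.7 RPKM. Its low value in water 4 concerns a gene that shares its locus with another name. Of the germline stem cell and sex determination regulators all 34 names found were expressed, with a median of 58.1 RPKM. The Notch target sygl-1 led them with 241, 285, 397 and 338 RPKM and the nanos-related gene nos-2 followed with 188, 272, 300.4 and 231 RPKM. The Notch receptor gene glp-1 was even between libraries, with 81.04, 96.5, 90.8 and 88.0 RPKM, and lag-2, its ligand in the distal tip cell, stayed at or below 0.373 RPKM. The PUF repressor gene fbf-1 stood at 35.6, 286, 140.2 and 139 RPKM, again lowest in water 1 and highest in water 2.

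Germ granule and small RNA genes were expressed in 49 of 50 names found, with a median of 50.9 RPKM. The Vasa-related helicase gene glh-1 stood at 223, 1409, 855 and 855 RPKM and the P granule gene pgl-1 at 99.7, 194, 197 and 174 RPKM. The Argonaute gene wago-1 stood at 455, 714, 821 and 603 RPKM and the mutator complex gene mut-15 at 98.9, 509.7, 320 and 389 RPKM. In 29 of the 49 genes water 1 was below every other library, against 30.7% of all expressed genes. The list held long transcripts, with a median annotated length of 2933 nt against 1420 nt over all expressed genes.

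Expressed meiosis genes stayed within a 4-fold range between libraries. Their median SD of log2(RPKM + 1) was 0.31, against 0.45 over all expressed genes. It was near that of other lists, with 0.34 for cell cycle genes, 0.34 for polarity and cortex genes and 0.35 for chromatin genes. Of 50 names found 43 were expressed, the median was 56.9 RPKM, and none of the 43 had a 4-fold range, against 17.1% of all expressed genes. The gene lab-1, which protects cohesion between sister chromatids, stood at 601, 300.5, 411 and 423 RPKM and was highest in water 1. The cohesin release factor wapl-1 stood at 165, 598, 432 and 404 RPKM and the synaptonemal complex gene syp-4 at 122, 344, 241 and 251 RPKM, both lowest in water 1. Of 77 cell cycle names 75 were expressed with a median of 74.7 RPKM. The centriole assembly gene sas-5 stood at 218, 468, 376 and 489 RPKM, the chromokinesin gene klp-19 at 128, 600.1, 397 and 409 RPKM and the cyclin B3 gene cyb-3 at 405, 358, 383 and 318 RPKM. In the first 2 of these water 1 was the lowest library, and in cyb-3 it was the highest. Genes of cell polarity and the cortex were expressed in 39 of 41 names found, with a median of 61.9 RPKM. The 14-3-3 gene par-5 led them with 932, 549, 717 and 822 RPKM, followed by the alpha-tubulin gene tba-2 with 559, 636, 704 and 628 RPKM and the beta-tubulin gene tbb-2 with 434, 579.6, 628 and 679.7 RPKM.

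Chromatin genes lay at a median of 41.7 RPKM in 51 expressed of 56 found. The chromodomain gene cec-3 was highest with 449, 593, 471 and 508 RPKM. The gene mes-6, a subunit of the Polycomb complex PRC2, followed with 143, 359, 232 and 329 RPKM and the ISWI remodeller gene isw-1 with 81.5, 147, 123 and 117 RPKM. The study names jumonji demethylases in its title, and in the water lineage these differed widely in level. Of 8 names that begin with jmjd 5 were expressed, and jmjd-1.2 was the highest of them with a mean of 87.1 RPKM. The histone demethylase gene jmjd-2 stood at 48.1, 34.3, 40.9 and 40.0 RPKM, or 40.8 ± 5.66 RPKM (mean ± SD, n = 4). The X-linked gene utx-1 stood at 2.90, 3.98, 5.57 and 2.99 RPKM and jmjd-3.1 at 1.26, 1.40, 1.79 and 1.197 RPKM. Below the level for expression lay jmjd-3.2, at up to 0.0625 RPKM in any library, and jmjd-3.3, at up to 0.293 RPKM.

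Core histone names were low. Of 62 names, among them his-24, which encodes a linker histone, 12 reached 1 RPKM and 41 stood at 0 in all 4 libraries, and the highest was his-41 with 65.0, 43.9, 57.6 and 4.11 RPKM. Core histone genes are near-identical copies, so levels of single names are uncertain. Linker histone genes were low as well, led by hil-5 at 1.60, 2.37, 3.18 and 2.28 RPKM. Most core histone mRNAs are known to lack a poly(A) tail, and a part of this in the values was not tested.

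Other machinery shared by all cells was expressed almost completely. For the proteasome 30 of 32 names were expressed at a median of 116 RPKM, and the sums of the 4 libraries, 3207, 3164, 3104 and 3262 RPKM, differed little. Its member rpn-8 stood at 182, 166, 177 and 184 RPKM. For the respiratory chain 33 of 35 names were expressed at a median of 39.5 RPKM, with 231, 365, 289 and 372 RPKM for the complex I gene nduf-2.2. This list does not hold H28O16.1, the alpha subunit gene of the ATP synthase given above. Splicing factors were expressed in 38 of 43 names found at a median of 52.7 RPKM. The SR protein gene rsp-3 stood at 212, 138, 163 and 182 RPKM and the Sm protein gene snr-2 at 226, 146, 135 and 121 RPKM. Medians of lists cover the members that passed the level of 1 RPKM and so describe the expressed part of each list.

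**Figure D3:**
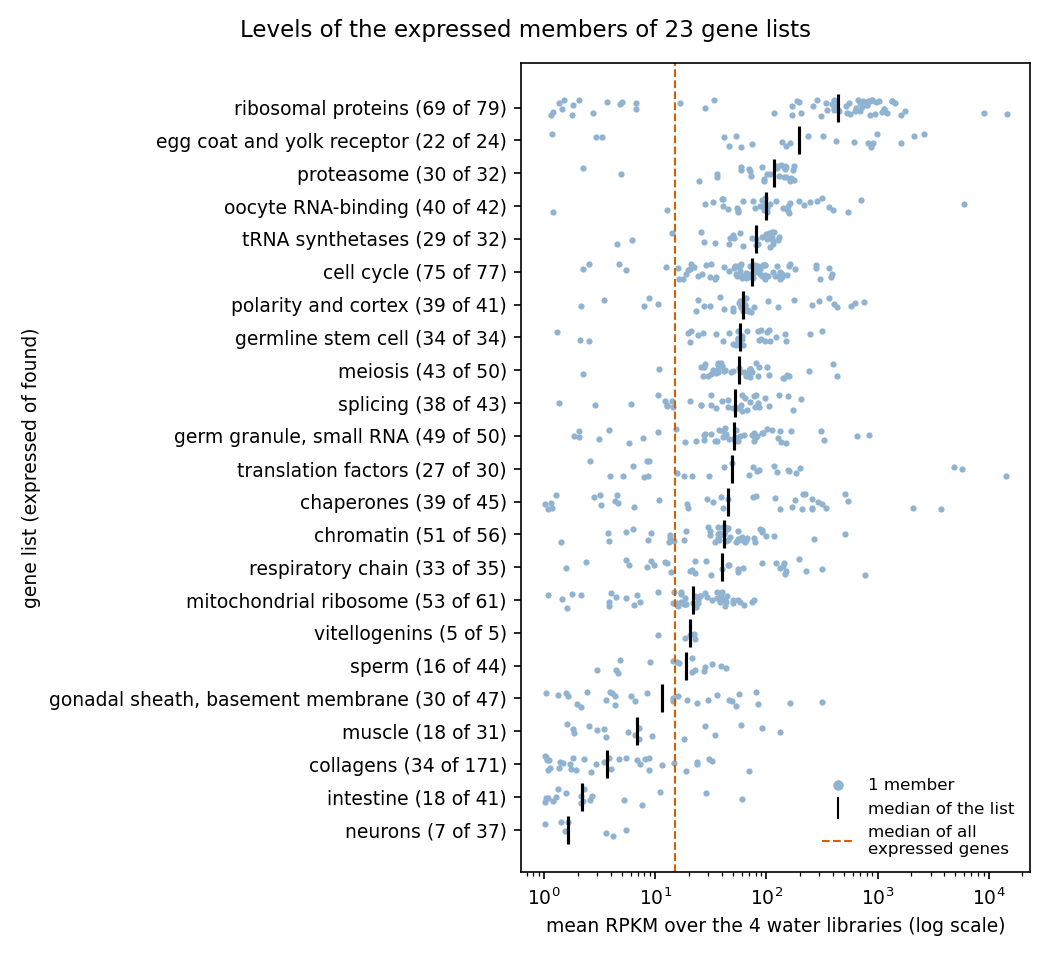
Mean RPKM over the 4 water libraries (x axis, log scale) of each expressed member of 23 gene lists, with the number expressed of the number found, a bar at the median of the list and a dashed line at the median of all expressed genes (15.02 RPKM). Ribosomal protein genes have the highest median, 443 RPKM, and neuron genes the lowest, 1.63 RPKM.

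The X chromosome was low apart from a few names. Of its protein-coding genes 29.4% were expressed (763 of 2597), against 40.3% on the autosomes (6594 of 16375), where the share lay between 23.2% on chromosome V and 56.4% on chromosome III. The median level of the expressed X-linked genes was 4.71, 2.71, 4.31 and 2.86 RPKM in water 1 to water 4, and that of the autosomal genes 21.9, 16.6, 19.7 and 19.4 RPKM. On the log2(RPKM + 1) scale the X-linked median was different from the autosomal one by -2.08 ± 0.19 (SD, n = 4). Only 9 X-linked protein-coding genes (0.347%) reached 100 RPKM, against 723 autosomal ones (4.42%). The size of the difference depended on the level required, and among genes averaging 10 RPKM or more it was -1.07.

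Protein-coding genes of the X chromosome nevertheless took 4.12, 2.17, 8.71 and 4.02% of the summed RPKM, and most of that in 3 libraries came from 4 names. F23A7.4 stood at 3577, 1804, 12514 and 4915 RPKM, irld-23, a member of a family with receptor-like L domains, at 3485, 1619.6, 9569 and 4384 RPKM, the T-box gene tbx-32 at 2414, 1215, 10609 and 3608 RPKM and F23A7.8 at 1181, 431, 3508 and 1013 RPKM. Each was highest in water 3 and lowest in water 2. K03H6.8, which has no match in the current annotation, showed the same order with 2144, 1353, 11057 and 3491 RPKM. Whether the reads counted under these 5 names come from these genes cannot be told from the tables, so their levels and the X-linked share that rests on them are uncertain. The 4 X-linked names made up 59.7, 48.6, 81.1 and 71.3% of the X-linked sum, and without them X-linked genes took 1.66, 1.11, 1.64 and 1.15% of the summed RPKM. F23A7.4 and F23A7.8 share a locus, which summed to 4757, 2234, 16022 and 5928 RPKM. Nearly all other members of the families of irld-23 and tbx-32 were low: 3 of 66 irld names and 6 of 18 tbx names were expressed, with irld-23 holding 99.9% and tbx-32 99.5% of the family sum. The next X-linked names were Y73B3A.18, annotated as a pseudogene, at 217, 615, 874 and 529 RPKM and T04G9.7 at 671, 282, 421 and 531 RPKM. Both lie at loci with several names. The protein disulfide isomerase gene pdi-2 stood at 128, 299, 394 and 204 RPKM, and C39D10.7 and the tyramine beta-hydroxylase gene tbh-1, with 156, 202, 205 and 161 and 134, 112.1, 127 and 112.4 RPKM, were even between the libraries. F46H5.3 stood at 59.8, 95.9, 201 and 107 RPKM and was highest in water 3.

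Markers of other tissues were low but not at 0. The 37 neuron names summed to 24.7, 39.1, 24.9 and 14.2 RPKM with 7 expressed, and rab-3, unc-17 and unc-25, markers of all neurons, of cholinergic and of GABA neurons, stayed at or below 0.408 RPKM. The synaptobrevin gene snb-1, of synaptic vesicles, was high in water 2 alone, with 0.332, 20.7, 0.520 and 0.0567 RPKM. It shares its locus with another name, so that value is uncertain. Also expressed were unc-119 at 9.69, 1.45, 3.72 and 1.67 RPKM and ric-19 at 3.28, 4.01, 3.63 and 3.38 RPKM. For muscle 18 of 31 names found were expressed, with sums of 376, 317, 746 and 248 RPKM. The troponin C gene pat-10 was the highest of them with 145, 35.2, 325 and 24.3 RPKM, whereas the body wall myosin gene unc-54 stood at 4.996, 5.105, 10.4 and 2.46 RPKM and hlh-1, the muscle determination factor, at or below 0.351 RPKM. For the intestine 18 of 41 names found were expressed, with sums of 92.5, 113.5, 272 and 97.5 RPKM, led by erm-1, a cortical linker that germ cells and sheath may express too, at 38.6, 69.5, 79.6 and 55.5 RPKM. The intestinal GATA factor gene elt-2 stood at 0, 0.473, 0.240 and 0 RPKM. Yolk protein genes, made in the intestine, summed to 71.9, 26.5, 248 and 34.5 RPKM, with 21.1, 5.93, 53.7 and 9.25 RPKM for vit-2. Collagen genes of the cuticle summed to 239.8, 248, 664 and 193 RPKM. Genes of the gonadal sheath and basement membrane summed to 828, 1206, 1111 and 1123 RPKM. The filamin gene fln-1 led them with 126, 429.6, 327 and 396 RPKM, followed by inx-14, an innexin of germ cells that couples them to the sheath, with 72.7, 246, 163 and 173 RPKM, and the sheath innexin gene inx-8 with 85.2, 64.8, 81.7 and 92.0 RPKM. The sheath transcription factor gene lim-7 stood at 2.77, 2.18, 3.81 and 0.979 RPKM.

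**Figure D4:**
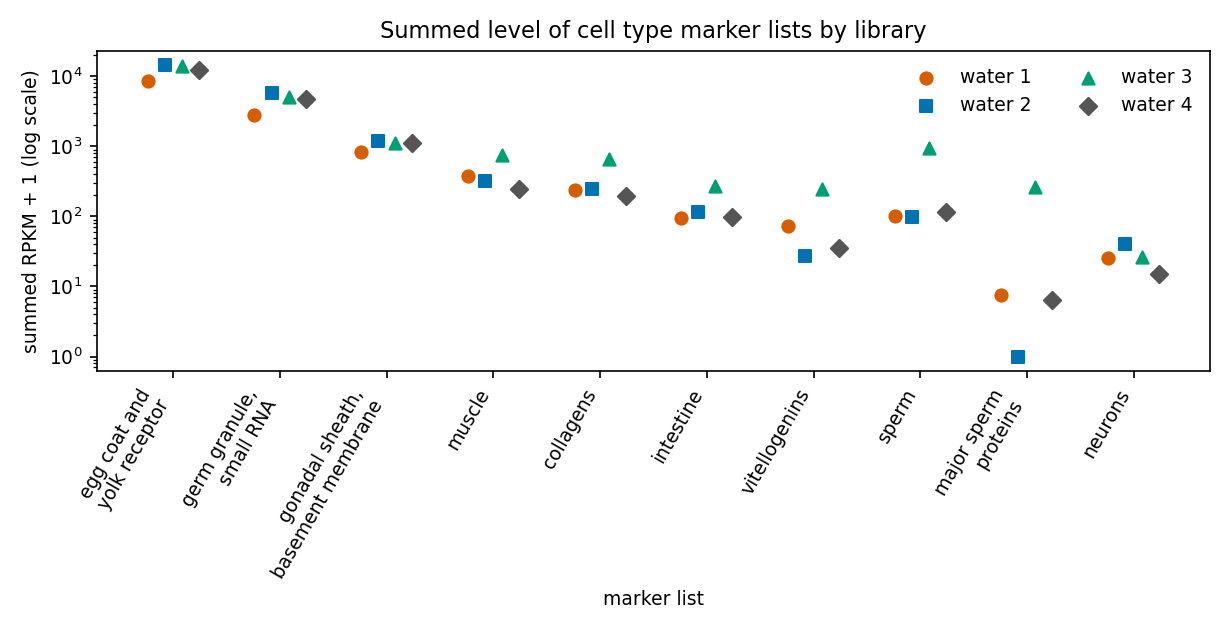
Summed RPKM + 1 (y axis, log scale) of 10 marker lists in each water library. Water 3 is the highest library for muscle, collagen, intestine, vitellogenin, sperm and major sperm protein genes, and major sperm protein genes are at 0 in water 2.

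Water 3 was the highest library in 6 of these lists at once. Its sum was 8.38 times the next highest for sperm genes, with 100.05, 96.3, 947 and 113 RPKM in water 1 to water 4. It was 3.45 times for vitellogenins, 2.68 times for collagens, 2.39 times for intestine and 1.99 times for muscle genes. The last sums rest in part on single members. In water 3 pat-10 gave 325 of 746 RPKM for muscle, and col-178 gave 186 of 664 RPKM for collagens. Among expressed genes, water 3 was highest in 5 of 5 vitellogenin, 15 of 18 intestine and 12 of 18 muscle genes. For collagens this held in 15 of 34, against 26.9% of all expressed genes. The median of expressed collagen genes was 2.85, 2.45, 3.11 and 1.76 RPKM in water 1 to water 4. Of 44 sperm names found 16 were expressed, and 10 of these were at least 4-fold above every other library in water 3, against 4.13% of all expressed genes. The filter on the mean favours this. The gene gsp-4, at 0.063, 0.866, 34.2 and 1.07 RPKM, passed it through water 3 alone. The sperm gene ssq-1 stood at 1.27, 3.96, 164 and 4.52 RPKM, ssq-4 at 0.183, 2.84, 150.4 and 2.61 RPKM and the phosphatase gene gsp-3, whose product acts in sperm, at 0, 1.096, 55.7 and 1.52 RPKM. Of the 30 major sperm protein names, which encode the cytoskeletal protein of nematode sperm, 2 reached a mean of 1 RPKM, and both did so through water 3 alone. They were msp-19 at 0, 0, 229.7 and 0 RPKM and msp-74 at 0, 0, 28.8 and 0 RPKM. Their copies are near-identical, so levels of single names are uncertain. A gene that was high in water 3 could reach the mean of 1 RPKM through that library alone. The number of expressed sperm genes, and the counts of listed genes that were highest in water 3, therefore rest in part on water 3.

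Altogether 321 expressed genes (4.13%) were at least 4-fold above all other libraries in water 3, against 103 in water 1, 33 in water 2 and 26 in water 4. Most of the 321 reached the mean of 1 RPKM through water 3 itself. Of the genes that averaged at least 1 RPKM in the other 3 libraries, 47 were 4-fold above them in water 3, 52 in water 1, 3 in water 2 and 9 in water 4. The larger number in water 3 thus rests on genes that were low in the other libraries. Of the 47 genes, 5 stood in the sperm lists. Of the 321, 12 stood in the sperm lists, namely 10 of 16 expressed sperm genes and 2 of 2 expressed major sperm protein genes. Another 7 stood in lists of other tissues, and the rest in neither. The 7 were vit-1 of 5 expressed vitellogenin genes, cpr-4 and cpr-6 of 18 intestine genes and 4 of 34 collagen genes, against 4.13% of all expressed genes. They included no muscle or neuron gene. The 321 had a median of 9.86 RPKM in water 3 and 0.256 RPKM in the others, and summed to 221, 260, 7464 and 360 RPKM in water 1 to water 4, 1.46% of water 3. The part of sperm, or of other cells cut out with the gonad, in these values was not tested.

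Water 1 differed from the other libraries by transcript length. This was read in 3293 protein-coding genes that are alone at their locus and average 10 RPKM or more, as the difference of log2(RPKM + 1) from the median of the other 3 libraries. The median difference was 1.37 in the 28 genes of up to 400 nt, 1.00 in the 140 genes of 400 to 600 nt, 0.20 at 1000 to 1500 nt, -0.21 at 2000 to 3000 nt and -0.70 in the 103 genes above 5000 nt. Genes of 400 to 600 nt were thus 2.01-fold higher in water 1 than in the others at the median, and genes above 5000 nt stood at 0.616 of their level. Water 2 ran the other way, from -0.57 to 0.17 over the same classes, and water 3 and water 4 stayed between -0.19 and 0.18. Across these genes, which share libraries and are not independent, Pearson's correlation of the difference with log2 length was -0.42, 0.32, 0.05 and -0.10 in water 1 to water 4. A tie to RNA quality, amplification or fragment length was not tested.

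**Figure D5:**
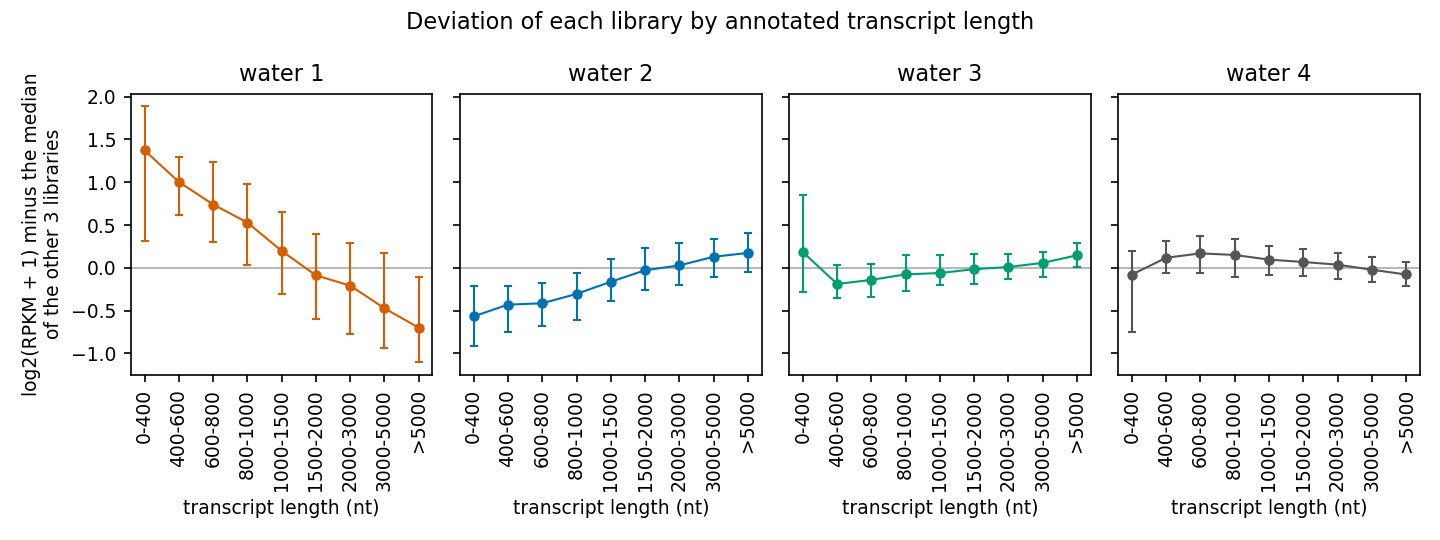
Median difference of log2(RPKM + 1) from the median of the other 3 libraries (y axis), by class of annotated transcript length (x axis), with 1 panel for each water library and bars from the lower to the upper quartile of the genes in the class. Water 1 runs from 1.37 in the shortest class to -0.70 in the longest, and water 2 in the opposite direction.

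The same order stood within the ribosomal protein genes. Of the 36 expressed ones with transcripts of up to 600 nt 28 were higher in water 1 than in all others and 0 lower, against 42.6% and 30.7% of all expressed genes. Of the 32 longer ones 16 were higher and 11 lower, shares near those of all expressed genes. Several germline groups with longer transcripts were lower in water 1. The median difference of water 1 was -0.76 for egg coat and yolk receptor genes, with a median length of 1780 nt, -0.63 for germ granule and small RNA genes and -0.33 for oocyte RNA-binding genes, against 0.16 over all expressed genes. It was near 0 for other groups with long transcripts, at -0.03 for meiosis genes (2149 nt) and 0.02 for chromatin genes (2480 nt).

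The spread between the libraries was read as the SD of log2(RPKM + 1). Its median over the 7779 expressed genes was 0.45, and without water 1 it was 0.28 for the same genes, against 0.43 to 0.49 without another library. By level the median was 0.53 between 1 and 10 RPKM, 0.39 between 10 and 100, 0.43 between 100 and 1000 and 0.68 in the 41 genes at 1000 RPKM or more. The spread of the highest genes was thus the largest of the 4 classes, and without water 1 it was 0.22, close to the 0.22 and 0.21 of the classes from 10 to 1000 RPKM. Without water 1 the class from 1 to 10 RPKM then had the largest spread, 0.41. In pairs of libraries the median absolute difference was 0.55 to 0.66 for the 3 pairs with water 1 and 0.30 to 0.35 for the others. Pearson's correlation over expressed genes, which describes these libraries only, lay between 0.81 for water 1 and water 3 and 0.94 for water 2 and water 4.

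A 4-fold range on this scale was reached by 1327 expressed genes (17.1%), and by 520 where 5 in place of 1 was added to RPKM. For the same genes the number was 810 without water 1, 1012 without water 2, 762 without water 3 and 1198 without water 4. The range was more frequent among the 1340 expressed genes at loci with several gene names (404, or 30.1%) than among the 6439 alone at their locus (923, or 14.3%). Likewise 548 expressed genes were listed at 0 in some library, and 227 of these shared a locus. Of those averaging 10 RPKM or more, 87 shared a locus. The ribosomal protein gene rps-22, needed in every cell, was listed at 0, 52.3, 0 and 14.98 RPKM, so a listed 0 need not mean that a gene is silent.

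Among genes alone at their locus and averaging 10 RPKM or more, the largest spread was that of R148.4, with 1.24, 0.713, 364 and 501 RPKM. Y66H1A.4, named garr-1 in the current annotation and related to the small nucleolar RNA protein Gar1, stood at 456, 2.38, 0.310 and 152 RPKM. The genes split the libraries differently, with water 3 and 4 high in the first and water 1 and 4 high in the second. A pattern with water 3 high and the rest near 0 held for msp-19 and ssq-4 above and for Y69E1A.2 (0.301, 1.93, 217 and 5.06 RPKM), Y59H11AM.1 (0, 2.21, 138 and 2.52 RPKM) and ZK546.3 (0, 2.35, 115 and 4.39 RPKM). Y105E8A.37 was high in both water 3 and water 4, with 0, 9.44, 186 and 171 RPKM. ZK742.6 was low in water 3 alone, with 157, 148, 0.162 and 139 RPKM. The glutathione S-transferase gene gst-7 was high in water 1 alone, with 171, 0, 0.266 and 1.19 RPKM. The cystatin gene cpi-2, an inhibitor of cysteine proteases, was high in water 1 and water 2 with 48.5, 47.3, 0 and 0.228 RPKM, and C56A3.4 in water 1 and water 4 with 52.2, 1.47, 0.496 and 91.1 RPKM. T05B11.9 and the piRNA name 21ur-13952 were each listed in a single library, at 77.1 RPKM in water 4 and at 67.6 RPKM in water 2.

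Among the 10 genes with the largest spread at loci with several names, a neighbour was often high where the gene was at or near 0. The oocyte regulator puf-5 was listed at 1.94, 423, 0 and 354 RPKM and F54C9.9 at the same locus at 420, 197, 323 and 44.9 RPKM, and the locus as a whole gave 422, 619.9, 323 and 399 RPKM. C27F2.9 stood at 353, 0, 399.98 and 0 RPKM and its partner vps-22, a subunit of the endosomal sorting complex ESCRT-II, at 65.8, 236, 43.1 and 242 RPKM, with a sum of 419, 236, 443 and 242 RPKM. In both cases the sum varied far less than the name with the larger spread. For rpl-41, listed at 0, 296, 454 and 0 RPKM, the locus gave 587, 317, 473 and 228 RPKM. For rpl-16, listed at 0, 315, 7.04 and 351 RPKM, it gave 255, 548, 397 and 397 RPKM. The neighbour C09H10.10 took the larger value where rpl-41 was at 0, and M01F1.3 did so for rpl-16. For rps-30, listed at 846, 0, 300.1 and 398 RPKM, it gave 882, 252, 325 and 424 RPKM. The exosome gene exos-8 was listed at 0, 0, 0 and 364 RPKM and its locus at 142, 195, 203 and 429 RPKM. The farnesyltransferase gene fntb-1 was listed at 0, 229, 161 and 173 RPKM and its locus at 163, 309, 222 and 252 RPKM. The proteasome gene pbs-3, F37A4.2 and C14B1.9 belonged to the same set, with locus sums that spanned 1.37 to 2.02 on the log2 scale. Levels of the single names at these loci are uncertain.

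The most even genes at 100 RPKM or more had a highest library close to the lowest. The dUTPase gene dut-1 had the smallest spread, with 254, 249, 256 and 263 RPKM (SD of log2 0.03). R09B3.3, named rbm-3.2 in the current annotation and coding for an RNA-binding protein, stood at 4072, 4246, 4042 and 3924 RPKM at rank 14 of all genes. The replicative helicase subunit gene mcm-4 stood at 120.4, 122, 125 and 129.8 RPKM and the ribosomal protein gene rps-15 at 543, 519, 568 and 566 RPKM. The splicing gene smu-2 stood at 226, 249.9, 232 and 239.8 RPKM, and lpd-7, which is related to ribosome assembly factors, at 160, 162, 154 and 169 RPKM. F25H8.1, T07C4.3 and D1081.8 were as even, with means of 113, 159.9 and 106 RPKM and a highest library 1.09 to 1.11 times the lowest. These genes differed little between all 4 libraries, water 1 included.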

How the data were processed

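The tables of the 4 water libraries list RPKM per transcript (reads scaled to transcript length and to mapped reads), computed by the authors and named so per the file headers. HISAT and StringTie with genome build ce10 are named per the submitters' processing notes, with versions, annotation and strand settings not given in the sources used here. Per the labels' protocols, cDNA was made from ultra low input RNA with SMART-Seq v4, libraries with Nextera XT, and single-end reads of 50 bp on an Illumina HiSeq.

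The 49201 transcripts, 279 of them without a name, were summed by gene name. Names were matched to Ensembl release 115 for biotype, chromosome and transcript length, and 40099 of 40961 (97.9%) matched. Its coordinates, of another build, were not used. A gene is said to share a locus where the transcript models put several gene names at 1 locus, which held for 3605 of 37450 loci and for 1340 expressed genes (17.2%). Levels are RPKM and spreads are SDs of log2(RPKM + 1), which understates the differences of low genes. A 4-fold range means a difference of at least 4-fold between RPKM + 1 of the highest and lowest library.

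RPKM gives no read counts, so no count test, interval or limit of detection was computed, and the estimated depth, 14.5, 26.2, 14.04 and 18.5 in units of 1000000 reads, is rough. No pair of libraries held more than 0.00613% identical values. The genes named were taken from sets given by rule, and some members of these sets are not named. The sets are the 25 with the highest mean, and the 15 alone at their locus and the 10 at shared loci with the largest SD at a mean of at least 10 RPKM. Further sets are the 10 with the smallest SD at a mean of at least 100 RPKM and the 10 highest X-linked genes. The last are the 3 highest of each of 32 gene lists, the cell type markers, and the jumonji genes. Partners at a locus were named with their gene. A gene among the most even ones is not reported here. The members, lists and markers were chosen with earlier results of these data known. The computations were checked on simulated data. Of the alternatives, 13 were listed at the outset with those results known and 2 were added after seeing the data. Python 3.11.15, pandas 2.3.3, numpy 2.4.6 and matplotlib 3.10.9 were used.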

Additional observations from a re-analysis of the deposited data

Results flagged for a closer look

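Among 107 quantities, with 70 named genes and 32 gene list sums among them, 22 had a value that lay farther from the other 3 libraries than Dixon's limit for 4 samples, which is set on the gap to the nearest library over the whole range. The limit served only to pick values for a closer look. It stands for about 1 in 20 in independent, normally distributed values. Here some genes had been chosen for a large spread, and some of them are also part of the list sums. The number flagged can therefore not be read against that rate. Water 3 held the most, 9 highest and 2 lowest values. It was highest for the summed sperm genes (947 RPKM), major sperm protein genes (259 RPKM), intestine genes (272 RPKM) and collagen genes (664 RPKM). It was highest as well for msp-19 (229.7 RPKM), ssq-4 (150.4 RPKM), Y59H11AM.1 (138 RPKM), Y69E1A.2 (217 RPKM) and ZK546.3 (114.7 RPKM). It was lowest for ZK742.6 (0.162 RPKM) and for the summed stress and detoxification genes (1019 RPKM, against 1116, 1122, 1019 and 1112 RPKM in all libraries).

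Water 1 was lowest for ant-1.1 (3331 RPKM), eef-1A.1 (2393 RPKM), ndk-1 (2468 RPKM), the summed respiratory chain genes (2696 RPKM) and jmjd-3.2 (0 RPKM), which was at most 0.0625 RPKM in any library. The respiratory chain list does not hold H28O16.1, which stood at 630.1, 4435, 3502 and 2893 RPKM. These values are large against the sum, so the flag concerns the listed names only. Water 1 was highest for rps-24 (4159 RPKM) and gst-7 (171 RPKM). Water 4 was highest for eef-1B.1 (7474 RPKM), exos-8 (364 RPKM) and T05B11.9 (77.1 RPKM), and water 2 for 21ur-13952 (67.6 RPKM). Of these, exos-8, T05B11.9 and 21ur-13952 were listed at 0 in the other libraries. The part of transcript length, of locus sharing and of other cells in these values was not tested gene by gene.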

How the results depend on the processing

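The results were repeated under 13 other settings and 2 chosen after seeing the data (without water 1 and 3, and with the length trend removed). The X-linked minus autosomal median stayed negative in each setting in which it was computed. The other results are counts, shares and a median SD, which have no direction that could change. No paired analysis was possible because the results come from no test and concern 1 group. The number of expressed genes was 7779, 4346 with a mean of at least 10 RPKM and 20346 with no filter. Leaving out a library gave 7328 to 7959 genes, and 39.8% to 42.7% for the share of the 100 highest.

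The X-linked minus autosomal median was -2.08, and -2.29 to -1.97 with a library left out. It was -1.69 with libraries rescaled to a sum of 1000000 RPKM, which changes the unit, and -2.08 with libraries rescaled by median ratio. With pseudocounts of 0.1 and 5 it was -2.33 and -1.43. It was -1.07 at a mean of at least 10 RPKM, -0.20 with no filter, -2.27 with medians over libraries and -2.48 without water 1 and 3.

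The median SD of log2(RPKM + 1) was 0.45. It was 0.29 without water 1 and up to 0.49 without another library, 0.23 with no filter, 0.22 without water 1 and 3 and 0.41 with the length trend of each library removed. The number of genes with a 4-fold range was 1327, and with genes filtered anew it was 779 without water 3, 857 without water 1, 1073 without water 2 and 1257 without water 4. It was 2190 with libraries rescaled to a sum of 1000000 RPKM, which changes the unit, and 1294 with libraries rescaled by median ratio. It was 520 with a pseudocount of 5 and 519 at a mean of at least 10 RPKM. With medians it was 869, with the length trend removed 1205 and without water 1 and 3 231.

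For named genes 1750 values moved by less than the SD between libraries. The only larger moves came with the rescaling to a sum of 1000000 RPKM, which changes the unit. Of the medians of gene lists 337 moved by less and 94 by more, and of their shares 421 by less and 27 by more, all 27 with sums by locus or with shared loci left out. Without counts, depth limits the lowest levels by an amount that cannot be given.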

Other observations

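In large gene families of sensing and defence most names lay under a mean of 1 RPKM, as did most names of all kinds. That mean was reached by 18.99% of all names and by 7357 of 18972 names of protein-coding genes. Few names of these families stood at 0 in all 4 libraries, against 20615 of all 40961 names, of which 13145 were piRNA names. Of 274 nuclear hormone receptor names 58 were expressed, with a median of 2.74 RPKM. None of the 58 had a 4-fold range between libraries, against 17.1% of all expressed genes and 23.5% of those between 1 and 10 RPKM. At such levels the 1 added to RPKM narrows the range. In all 4 libraries 19 of the 274 were at 0. The highest were nhr-66 with 59.9, 48.7, 45.6 and 43.6 RPKM and nhr-49, a regulator of fat metabolism, with 20.95, 33.7, 34.4 and 30.5 RPKM. Of 433 names of F-box, MATH and BATH genes, whose products are thought to select proteins for degradation, 87 were expressed with a median of 5.16 RPKM, led by fbxc-50 with 102, 144, 170.4 and 138 RPKM. Of 209 names of stress and detoxification genes 46 were expressed. The UDP-glucuronosyltransferase gene ugt-64 stood at 49.6, 221, 135 and 128 RPKM, the glutathione reductase gene gsr-1 at 77.6, 92.4, 103 and 137 RPKM and the mitochondrial peroxiredoxin gene prdx-3 at 83.9, 108, 103 and 103.9 RPKM. C-type lectins were expressed in 27 of 248 names, and clec-87 alone held 82.2% of the sum of names that begin with clec.

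In contrast, some families were expressed throughout. Among 343 families of at least 5 names that share a prefix 35 had all names expressed and 43 had none. Complete families included npp, the nuclear pore proteins (22 of 22), cdk, the cyclin-dependent kinases (8 of 8), eef (5 of 5) and perm (5 of 5). By the median of all their names the highest families were eef with 4875 RPKM, rps with 443 RPKM, cpg with 419 RPKM and act, the actins, with 298 RPKM. These families were chosen after their values were seen.

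Over all names 18.99% reached a mean of 1 RPKM, and the share differed between kinds of non-coding genes. Of 13242 piRNA names 14 reached 1 RPKM, and apart from 21ur-12279 the highest was 21ur-13999 with 37.9, 60.6, 61.7 and 68.7 RPKM. Of 339 snoRNA names 23 reached it, of 173 lincRNA names 14 and of 619 pseudogenes 124. Libraries of cDNA from long RNA hold no mature piRNA, so these values describe reads over the loci and not the small RNA.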
